A study of Rattus norvegicus with 12 samples.

Results

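The genes described here encode the factors that run protein synthesis on cytosolic ribosomes and the enzymes that load transfer RNAs with amino acids. They were chosen by gene symbol: names beginning with Eif or Eef and a number, and the names of the aminoacyl-tRNA synthetases. A probe was kept where its mean log2 intensity over the 12 arrays lay in the upper 50% of all probes, and the brightest kept probe stood for its gene. This gave 66 genes, 42 translation factors and 24 synthetases, out of 7780 genes with a kept probe. The array held 76 genes that matched by name. The other 10 fell below the brightness limit: Eif1ax, Eif2a, Eif2ak2, Eif3k, Eef1a2 and Eef2kmt among the factors, and Hars1, Fars2, Lars2 and Pars2 among the synthetases. Just inside the limit lay Eif4ebp2 and Qars1, with mean intensities of 58.6 and 58.7, and just outside it lay Eif2ak2 and Hars1, at 55.4 and 54.8. The choice used no difference between groups.

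The samples were fascicles of rat tail tendon, thin collagen bundles with tenocytes between the fibres, kept in vitro. Per the labels they were stretched cyclically for 1 h or 24 h, and unstrained controls were taken at both times. Each of the 4 groups had 3 RNA samples, 1 array each. The rats' strain, age and sex are not stated in the labels, nor is it stated whether replicates were separate animals. The p-values therefore measure how far these samples spread, and part of that spread may be technical. Of 9 tenocyte markers, the 6 on the array (Tnmd, Col1a1, Col1a2, Fmod, Dcn and Thbs4) were all kept. The 4 endothelial and 2 epidermal markers on the array were all below the brightness limit, and 7 of 8 macrophage, 2 of 5 skeletal muscle, 1 of 3 erythrocyte and 3 of 3 nerve markers were above it. Arrays of a group correlated at 0.969 to 0.985. Since RNA came from whole fascicles, fewer cells of a type and less RNA per cell cannot be told apart.

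Translation starts when eIF2, carrying the initiator transfer RNA, joins the small ribosomal subunit with eIF3, while eIF4 proteins bind the messenger RNA's cap and unwind its leader. The exchange factor eIF2B recharges eIF2 with GTP after each round. Kinases of eIF2 block that step under stress, which lowers general translation and favours translation of the transcription factor ATF4. ATF4 in turn is known to switch on genes of amino acid supply, among them several cytosolic tRNA synthetases, through a composite site shared by ATF and C/EBP proteins. Elongation is carried by eEF1, which delivers loaded transfer RNAs, and by eEF2, which moves the ribosome along.

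The core of that composite site, TGATGNAA, was searched on both strands of RefSeq promoter windows, which run from 250 bases before to 50 bases after the annotated start (rat build GRCr8). Windows were found for 58 members, 57 matched by Entrez identifier and 1 by symbol, and cover 36 factors and 22 synthetases. The core was present in 6 of the 22 synthetases (27.3%), all cytosolic, in 0 of 8 mitochondrial ones and in 1 of 36 factors, Eif2s2. Among 19005 protein-coding promoter windows of the same length, 3.33% held it. Sites of 5 of these synthetases are shown because the 6 genes all fell over culture time in unstrained fascicles. Each line gives 30 bases, read 5′ to 3′ on the gene's strand, with the core or its reverse complement in capitals.
Cars1, cysteinyl-tRNA synthetase, chr1:208225334-208225363, minus strand: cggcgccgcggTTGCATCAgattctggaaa
Iars1, isoleucyl-tRNA synthetase, chr17:15193658-15193687, minus strand: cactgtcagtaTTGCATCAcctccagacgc
Nars1, asparaginyl-tRNA synthetase, chr18:60275778-60275807, minus strand: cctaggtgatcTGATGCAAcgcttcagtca
Tars1, threonyl-tRNA synthetase, chr2:62114811-62114840, minus strand: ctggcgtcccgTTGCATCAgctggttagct
Yars1, tyrosyl-tRNA synthetase, chr5:146820183-146820212, plus strand: cggagctacgagctcagcTGATGCAAcctg
Counting the first transcribed base as position 1, the core began at position -24 in Iars1, -14 in Nars1 and -27 in Tars1. In Cars1 and Yars1 it lay behind the annotated start, from position 18 and 39. The stretch of 250 bases before the Tars1 start (chr2:62114803-62115052, minus strand) places the core in its surroundings, with the core again in capitals.
Tars1 upstream: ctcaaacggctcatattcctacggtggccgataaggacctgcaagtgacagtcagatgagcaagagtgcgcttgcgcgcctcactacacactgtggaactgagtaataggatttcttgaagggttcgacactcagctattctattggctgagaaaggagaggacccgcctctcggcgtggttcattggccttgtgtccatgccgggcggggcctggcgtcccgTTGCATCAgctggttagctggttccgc
A match to these letters is a description of the window and does not show that a factor binds there.

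After 1 h of strain, no translation factor and no synthetase passed the test. Limma, fitted over all 11258 kept probes with Benjamini-Hochberg adjustment, called 0 probes at an adjusted p under 0.05 (0% of those tested), and 552 probes had an unadjusted p under 0.05. The median log2 fold change was 0.01 over the 42 factors and 0.02 over the 24 synthetases, against -0.0012 over all kept probes. Values lay between -0.22 for Eif3h, a subunit of eIF3, and 0.30 for Eif2s1, the alpha subunit of eIF2 that the stress kinases phosphorylate. Eif2s1 read 245, 218 and 239 in unstrained and 331, 249 and 289 in strained fascicles. Its strained arrays all lay above its unstrained ones, which no other member showed in either direction, and 3.91% of all kept probes showed it upwards. Its log2 fold change was 0.30 ± 0.12 (SE), with a limma adjusted p of 0.964. The smallest p in the other roles belonged to Eef2 at -0.22, Qars1 at 0.20, Eif4ebp1 at -0.20, Eif2b2 and Aars2 at -0.12 and Eif2ak1 at 0.06. The fit above left the pairing of the 1 h samples out. With replicate number as a block, which pairs the 1 h samples, limma again called 0 members at 1 h. Eif2s1 then had a limma adjusted p of 0.43.

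After 24 h of strain most members stood somewhat higher in strained fascicles, and 2 passed the test. A value above 0 was found for 56 of 66 members, 34 of 42 factors and 22 of 24 synthetases, as for 53% of all kept probes. The median log2 fold change was 0.17 for factors and 0.20 for synthetases, against 0.01 over all kept probes. Limma called 2 factors and 0 synthetases at 24 h, where it called 2.34% of all kept probes, 0.968% higher and 1.37% lower. With replicate number as a block it called 8 factors and 4 synthetases, among 882 probes in all. The numbers were not accepted as pairs at 24 h, and the values below are from the fit without the block. The 3 strained arrays all lay above the 3 unstrained arrays for 27 members, and below them for Eif2ak3 and Eif5a2, whereas 11.2% of all kept probes showed the former and 9.34% the latter.

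**Figure D1:**
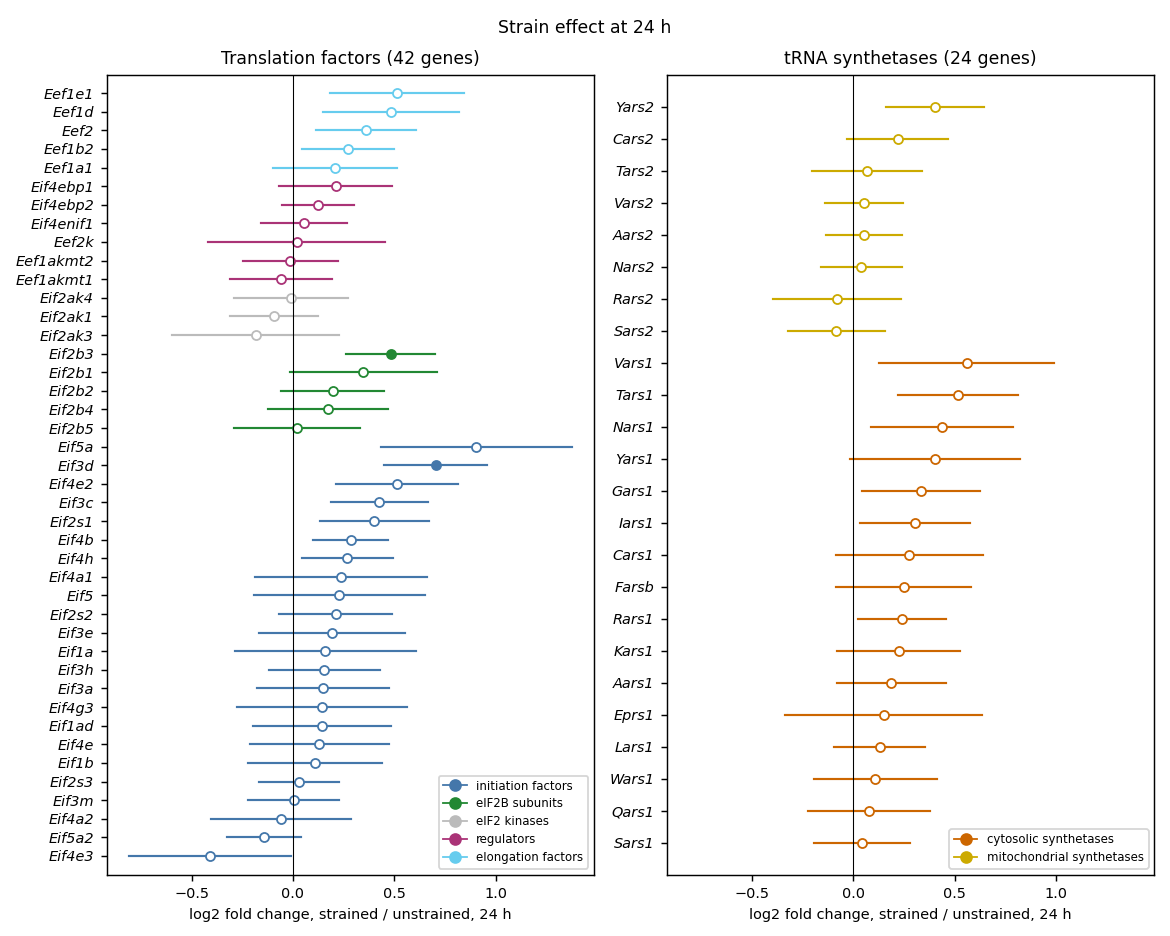
Log2 fold change of strained over unstrained fascicles at 24 h for the 42 translation factors and 24 synthetases, with 95% confidence intervals from limma and colours by role. Filled points, Eif3d and Eif2b3, passed the test, and 56 of 66 points lie right of 0.

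Among the initiation factors proper, 1 of 23 rose and 20 had values above 0, with a median of 0.16. Eif3d, the eIF3 subunit that can itself bind the cap of selected messenger RNAs, read 540, 561 and 582 in unstrained fascicles at 24 h. In strained fascicles it read 836, 906 and 1007. All strained arrays stood clear of the unstrained ones, and also of both 1 h groups, where Eif3d lay between 437 and 595. It was 1.63-fold higher with strain at 24 h, or 0.70 ± 0.12 in log2 (limma adjusted p = 0.0101). It stayed called in all 12 fits that left out an array, though narrowly in some, with adjusted p up to 0.0498 without strained replicate 2 at 24 h. The other 5 kept eIF3 subunits did not pass. Eif3c, a core subunit of eIF3, came nearest at 0.43 ± 0.11 (limma adjusted p = 0.0716), from 847, 712 and 805 unstrained to 978, 1007 and 1197 strained. Eif3a, Eif3e and Eif3h stood at 0.15, 0.19 and 0.16, and Eif3m at 0.0031, all with values below those of Eif3d and Eif3c.

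Eif5a carries the modified amino acid hypusine and helps ribosomes over difficult peptide bonds. It read 343, 200 and 282 in unstrained and 414, 642 and 478 in strained fascicles at 24 h. Its log2 fold change, 0.91 ± 0.22, was above that of Eif3d, but its arrays were spread more widely, and limma's adjusted p was 0.0516. The dim paralogue Eif5a2 stood at -0.14. Proteins of the cap-binding group ranged from -0.41 for Eif4e3 to 0.51 for Eif4e2, a cap-binding homologue that represses translation. None of these 8 passed. Eif4h, a helper of the same helicase and the brightest initiation factor, stood at 0.27, and Eif4b, another such helper, Eif4a1, the helicase itself, and Eif4e, the cap-binding protein, stood at 0.28, 0.24 and 0.13. The eIF2 subunits Eif2s1, Eif2s2 and Eif2s3 had values of 0.40, 0.21 and 0.03, with none past the test.

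All 5 eIF2B subunits had values above 0 at 24 h, and 1 of them rose. Eif2b3, the gamma subunit, which belongs to the catalytic part of eIF2B, read 100, 105 and 104 in unstrained and 141, 155 and 136 in strained fascicles. The unstrained arrays were close together and the strained ones lay well above them. The difference was 0.48 ± 0.10 in log2 (limma adjusted p = 0.0323), 1.40-fold. Eif2b3 lost its call whenever 1 of the 6 arrays at 24 h was left out, with adjusted p up to 0.145 without strained replicate 2, and also with a variance trend and robust estimation, at 0.0758. Eif2b1 (0.35), Eif2b2 (0.20), Eif2b4 (0.17) and Eif2b5 (0.02) did not pass. The 3 kept eIF2 kinases had values below 0: Eif2ak3, the kinase PERK that responds to unfolded protein in the endoplasmic reticulum, at -0.18, Eif2ak1, the haem-regulated kinase, at -0.10, and Eif2ak4, the amino acid sensor GCN2, at -0.01. None of them passed. Among 6 regulators, the values ran from -0.06 to 0.21, the highest being that of Eif4ebp1, which holds back the cap-binding protein, and none passed.

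All 5 elongation factor genes had strained arrays above unstrained ones at 24 h, without any passing the test, where 11.2% of all kept probes had such arrays. The highest value was that of Eef1e1, at 0.51 ± 0.15, a protein named with the elongation factors that sits in the multi-synthetase complex. Eef1d, the delta subunit of the exchange factor of eEF1A, read 1397, 1004 and 1478 unstrained and 1618, 1620 and 2172 strained. Its log2 fold change was 0.49 ± 0.15 (limma adjusted p = 0.148). Eef2 stood at 0.36, Eef1b2 at 0.27 and Eef1a1 at 0.21. For Eef1a1, which brings loaded transfer RNAs to the ribosome, the RefSeq gene table lists 20 pseudogenes, so its probe may also read near-identical transcripts. Its 3 kept probes had values of 0.21, 0.18 and 0.25.

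Messenger RNAs of many elongation factors begin with a run of pyrimidines, through which growth signalling is known to control their translation. A C followed by 5 pyrimidines, beginning within 10 bases of the annotated start, was found in 3 of the 4 elongation factor windows, in 9 of 36 factor windows and in 3 of 22 synthetase windows. Of all protein-coding windows 17.2% had such a start. The stretches of Eef1a1 and Eef1b2 are shown, 26 bases each with the pyrimidine start in capitals, because all 5 elongation factor genes had groups without overlap at 24 h of strain.
Eef1a1, chr8:88225050-88225075, minus strand: acgttCTTTTTcgcaacgggtttgcc
Eef1b2, chr9:72074088-72074113, plus strand: cccggCCCTTTttctccctcagcgct
Factors with such a start had a median log2 fold change for strain at 24 h of 0.03 (n = 9), and those with a window but without it a median of 0.16 (n = 27).

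Synthetases were higher in strained fascicles at 24 h for all 16 cytosolic genes, at a median of 0.24, but none passed the test. For 8 of the 16 all strained arrays lay above all unstrained ones, as for 11.2% of all kept probes. Tars1 had the smallest p. It read 201, 177 and 164 in unstrained and 272, 274 and 229 in strained fascicles, both below its 1 h values of 293 to 428. The log2 fold change was 0.52 ± 0.14 (limma adjusted p = 0.0762). A second, dim Tars1 probe, with a mean intensity of 57.4, had a value of 0.06. Vars1, valyl-tRNA synthetase, went from 500, 530 and 590 to 832, 896 and 672, a value of 0.56 ± 0.20 (limma adjusted p = 0.206), with no overlap between its groups. Nars1 stood at 0.44, Yars1 at 0.40, Gars1 at 0.33 and Iars1 at 0.30. The lowest value was that of Sars1, seryl-tRNA synthetase, at 0.04. The 6 genes with the core site ranged from 0.19 to 0.52, at a median of 0.35, and the 16 other synthetases with a window had a median of 0.09. Of these 16, the cytosolic ones ranged from 0.04 for Sars1 to 0.56 for Vars1, and the 8 mitochondrial ones, mostly dim, had a median of 0.05.

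The 8 kept mitochondrial synthetases, which load transfer RNAs inside mitochondria, had a median of 0.05 at 24 h of strain. Yars2 had the highest value of them, 0.40 ± 0.11 (limma adjusted p = 0.0932). It read 149, 180 and 168 unstrained and 194, 245 and 218 strained, without overlap. The mean intensities of the other 7 lay between 58.9 and 70.7, close to the limit of 56.2, where remaining background compresses fold changes. The 95% interval of a log2 fold change for strain at 24 h reached between 0.19 and 0.49 to either side for synthetases, and between 0.18 and 0.47 for factors. These intervals are not adjusted for the number of probes, and the test was stricter. Of 66 members, 20 had an unadjusted p under 0.05 in limma and 2 were called. Changes beyond such an interval could therefore also miss the threshold, as did that of Eif5a at 0.91.

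**Figure D2:**
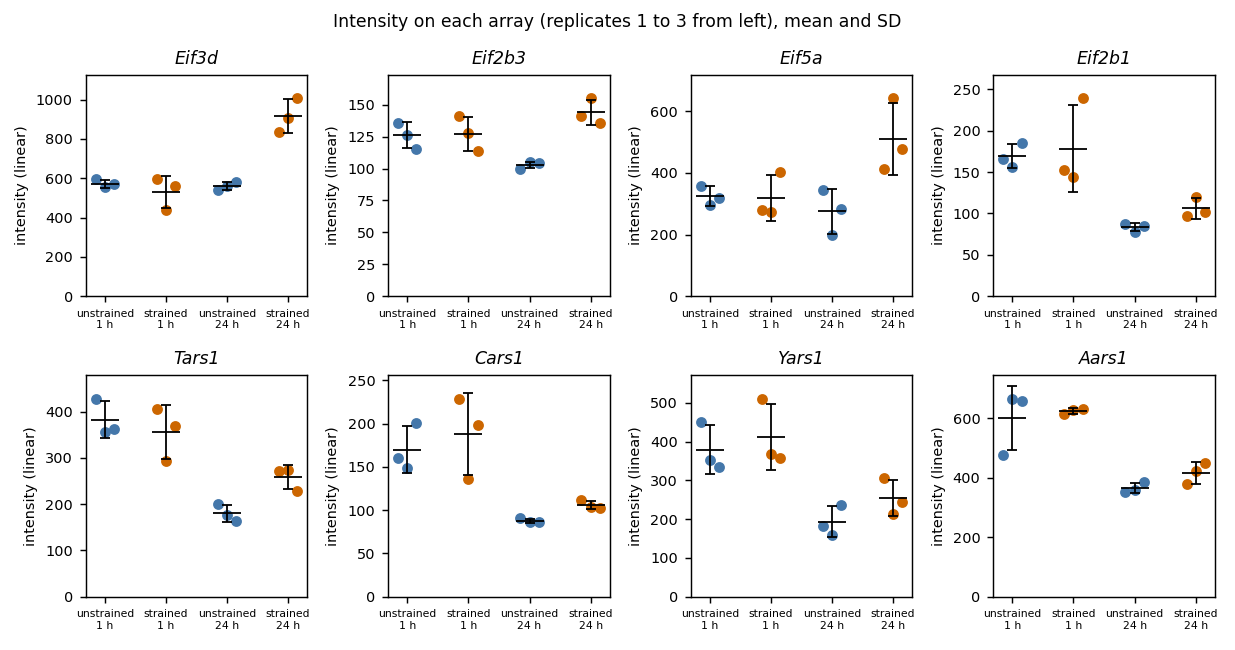
Linear intensity on each array for 4 translation factors and 4 cytosolic synthetases in the 4 groups, with replicates 1 to 3 from left to right and the mean and SD in black. Eif3d and Eif2b3 stand higher in strained fascicles at 24 h, and Eif2b1, Tars1, Cars1, Yars1 and Aars1 stand lower at 24 h than at 1 h in both conditions.

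The difference between the strain effects at 24 h and at 1 h was tested as a contrast of its own. Limma called 9 probes (0.0799%), none of them a member, while 917 probes had an unadjusted p under 0.05. Eif3d had the smallest adjusted p among members, 0.121, at a difference of 0.83 ± 0.16, from -0.12 at 1 h to 0.70 at 24 h. Eif5a had the highest difference, 0.95 ± 0.31 (limma adjusted p = 0.363). Among synthetases the differences of Vars1 and Tars1 were 0.71 and 0.63, with adjusted p of 0.484 and 0.331. With replicate number as a block at both times, limma called Eif3d (adjusted p = 0.0144) and Tars1 (adjusted p = 0.0476) for the difference, among 184 probes in all. The numbers pair the samples at 1 h but were not accepted as pairs at 24 h. The median difference was 0.18 for factors and for synthetases alike, against 0.01 over all kept probes.

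More members were called over culture time than with strain, and the same held for all kept probes. Of these, 2.34% were called for strain at 24 h, and the larger shares over time are given below. From 1 h to 24 h in unstrained fascicles, limma called 8 of 24 synthetases, 1 that rose and 7 that fell, and 5 of 42 factors, 2 that rose and 3 that fell. It called 17.2% of all kept probes in that comparison, 9.83% higher and 7.42% lower. From 1 h to 24 h in strained fascicles it called 6 synthetases, 2 that rose and 4 that fell, and 12 factors, 9 that rose and 3 that fell. The background there was 20.7%, with 12.2% higher and 8.52% lower. Both time comparisons set arrays of different times against each other, so time and any handling shared by the arrays of a time cannot be told apart. They also share arrays with the strain comparisons.

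In unstrained fascicles 7 of 16 cytosolic synthetases fell over culture time, and the median over the 16 was -0.42, against 0.0024 over all kept probes. Tars1 read 428, 355 and 363 at 1 h and 201, 177 and 164 at 24 h. The drop was 2.12-fold (log2 -1.08 ± 0.14, limma adjusted p = 0.000318). The arrays of the times lay far apart. The second, dim Tars1 probe, with a mean intensity of 57.4 against 281 for the probe used, had a value of 0.15 and did not pass.

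Yars1 went from 451, 353 and 334 to 183, 158 and 237, and Cars1 from 160, 149 and 201 to 90.3, 86.5 and 86.3. Their log2 fold changes were -0.98 ± 0.19 and -0.94 ± 0.17, with limma adjusted p of 0.00431 and 0.0024. Every 24 h array lay below every 1 h array in both. Nars1 fell from 978, 746 and 902 to 552, 463 and 568, by 0.73 on the log2 scale, and Aars1, alanyl-tRNA synthetase, from 477, 666 and 658 to 351, 360 and 384, by 0.70. Gars1, glycyl-tRNA synthetase, fell by 0.48 and Iars1 by 0.43. Each of these calls was lost in 5 of 12 fits that left out an array, with adjusted p up to 0.105 for Gars1 and 0.111 for Iars1, and Iars1 also missed the threshold in 1 of 9 other settings.

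The 6 synthetases whose promoter windows hold the core site all fell in unstrained fascicles, at a median of -0.83 and a range from -1.08 to -0.43. Of the 16 other synthetases with a window, 0 fell and 1 rose, at a median of -0.0016. These 16 include all 8 mitochondrial ones, which were mostly dim and had a median of 0.03. Site, class and brightness are thus mixed in this comparison. Gars1, the remaining synthetase that fell, has no window here. The split was not tested, since the site and the genes were chosen with earlier results of these data known. Among those without the site, Eprs1, which loads glutamate and proline, stood at -0.59 ± 0.22 (limma adjusted p = 0.0943). Wars1, tryptophanyl-tRNA synthetase, stood at -0.42 ± 0.14 (limma adjusted p = 0.0592). The other cytosolic genes with a window but no site were Lars1 at -0.28, Vars1 at -0.25, Kars1 at -0.14, Sars1 at 0.08, Qars1 at 0.20 and Farsb at 0.65. Another motif, the E-box CACGTG, was found in 5 of 22 synthetase and 8 of 36 factor windows and in 7.27% of all protein-coding windows. Synthetases with the E-box had a median of -0.43 in the same comparison (n = 5) and those without it a median of -0.05 (n = 17). Of the 5, Aars1, Iars1 and Tars1 also hold the core site, and Farsb and Vars1, which do not, stood at 0.65 and -0.25. The 17 include all 8 mitochondrial synthetases.

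**Figure D3:**
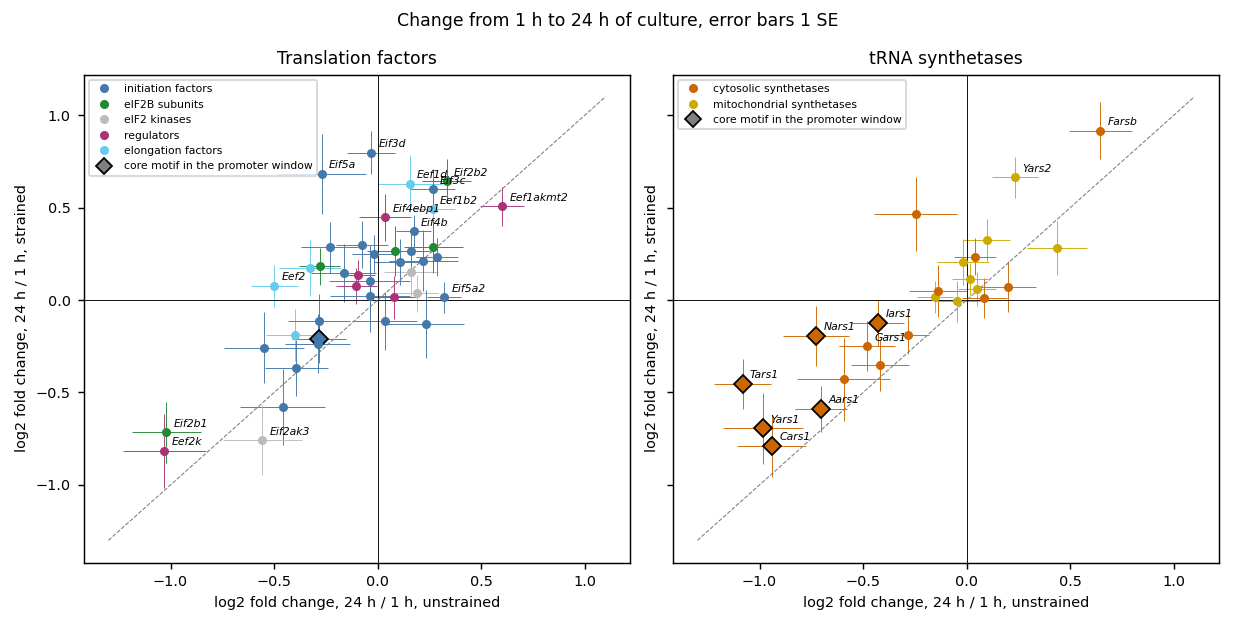
Log2 fold change from 1 h to 24 h in unstrained (x axis) and strained (y axis) fascicles for each member, with error bars of 1 SE and names for those called in either comparison. Diamonds mark genes with the core site TGATGNAA in the promoter window; all 6 synthetase diamonds lie left of 0 and below 0.

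Farsb, the beta subunit of phenylalanyl-tRNA synthetase, went the other way from the cytosolic synthetases that fell. It read 168, 149 and 128 at 1 h and 243, 245 and 206 at 24 h unstrained, or 0.65 ± 0.15 in log2 (limma adjusted p = 0.0124). The call was lost in 2 of 12 fits that left out an array, reaching an adjusted p of 0.0539 when the 1 h unstrained replicate 3 was dropped. In strained fascicles it read 167, 164 and 111 at 1 h and 278, 273 and 270 at 24 h, a rise of 0.92 ± 0.15 (limma adjusted p = 0.00129). Every 24 h array lay above every 1 h array in both conditions.

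In strained fascicles 4 cytosolic synthetases fell over culture time: Cars1 at -0.79, Yars1 at -0.69, Aars1 at -0.59 and Tars1 at -0.45. These 4 also fell without strain. Tars1 lost this call in 5 of 12 fits that left out an array and in 4 of 9 other settings (adjusted p up to 0.132), and Yars1 in 3 of 12 (up to 0.0994). The second, dim Tars1 probe stood at -0.02. Nars1, Gars1 and Iars1, which fell without strain, stood at -0.19, -0.25 and -0.12 with it. The difference of the time effect between strained and unstrained fascicles is the same contrast as the difference of strain effects above: 0 synthetases passed it without the replicate block, and Tars1 passed it with the block. Yars2 rose in strained fascicles from 143, 141 and 129 to 194, 245 and 218, by 0.66 ± 0.11 (limma adjusted p = 0.0013). It was the only mitochondrial synthetase called in any of the 5 comparisons.

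Among the factors, Eif2b1, the alpha subunit of eIF2B and part of its regulatory core, fell over culture time in both conditions. It read 166, 156 and 185 at 1 h and 87.0, 78.0 and 84.7 at 24 h unstrained, 2.03-fold lower (log2 fold change -1.02 ± 0.17, limma adjusted p = 0.00151). With strain it fell by 0.72 ± 0.17. Eif2b2, the beta subunit, stood at 0.33 without strain (limma adjusted p = 0.0736) and rose by 0.64 ± 0.12 with it (limma adjusted p = 0.00219). The remaining subunits did not pass in either time comparison. Over culture time, then, of 5 subunits 1 fell, 1 was called as a rise in strained fascicles and 3 did not pass.

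Eef2k, the kinase that inactivates eEF2, fell from 196, 131 and 140 to 65.2, 89.4 and 72.4 unstrained, or -1.03 ± 0.20 in log2 (limma adjusted p = 0.00407). In strained fascicles it fell by 0.81 ± 0.20, a call that was lost when the 24 h strained replicate 3 was dropped (adjusted p = 0.0527). Its target Eef2 fell only in the unstrained comparison, from 2483, 2653 and 2663 to 1794, 1748 and 1983, by 0.50 ± 0.11 (limma adjusted p = 0.01), and stood at 0.08 in the strained one. The difference between these time effects of Eef2 was 0.58 ± 0.16 and did not pass (limma adjusted p = 0.274). Eef1akmt2, a methyltransferase of eEF1A, rose by 0.60 ± 0.11 unstrained and by 0.51 ± 0.11 strained. Eif5a2, close to the brightness limit at a mean intensity of 60.1, rose by 0.32 ± 0.08 unstrained and lost the call in 4 of 12 fits that left out an array (adjusted p up to 0.0726).

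The other factors that changed over culture time under strain were mostly rises. Eif3d, at 595, 437 and 559 at 1 h, rose by 0.80 ± 0.12 (limma adjusted p = 0.000578), and Eif3c by 0.60 ± 0.11 (limma adjusted p = 0.00234). Eef1d rose by 0.63 ± 0.15, also lost when that array was dropped (adjusted p = 0.0536), and Eef1b2 by 0.49 ± 0.11. Eif4b, a cofactor of the helicase eIF4A, rose by 0.37 ± 0.08. Eif5a and Eif4ebp1 rose by 0.68 ± 0.22 and 0.45 ± 0.13, calls lost in 7 and 4 of 12 fits that left out an array (adjusted p up to 0.172 and 0.111, in both without strained replicate 2 at 24 h). These 2 calls were also lost in 4 and 2 of 9 other settings (limma adjusted p up to 0.081 and 0.109). The kinase Eif2ak3 fell by 0.76 ± 0.19, from 118, 127 and 187 to 74.5, 87.9 and 88.4, and missed the threshold when the 24 h strained replicate 1 was dropped (adjusted p = 0.0507). These comparisons share their 24 h strained arrays with the strain comparison above and are no separate evidence for a strain effect.

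**Figure D4:**
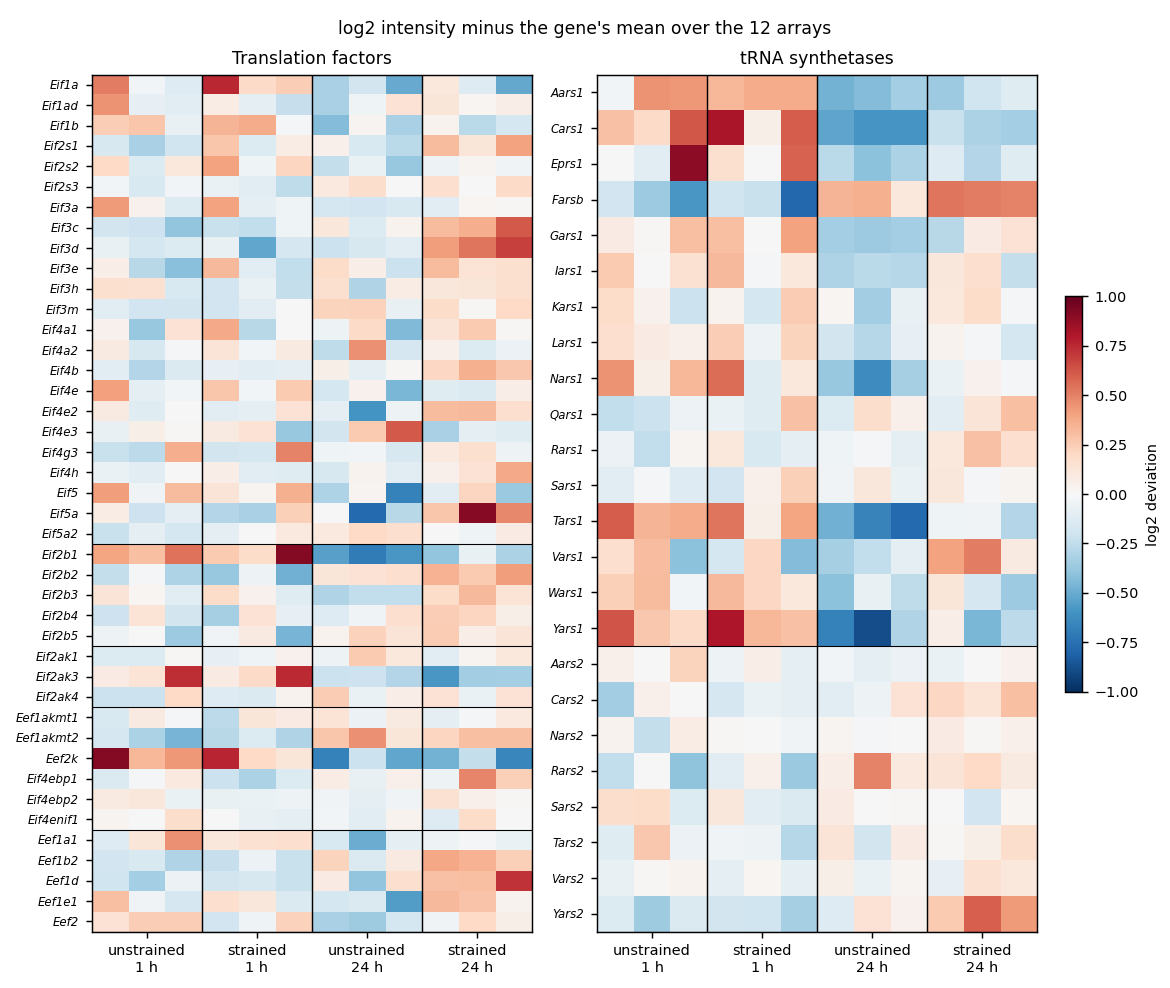
Log2 intensity of each member on each array minus its mean over the 12 arrays, with arrays in columns by group and replicates 1 to 3 from left to right, and members in rows by role. Cytosolic synthetases such as Tars1, Cars1, Yars1 and Aars1 are mostly red at 1 h and blue at 24 h unstrained. Aars1 is near neutral on unstrained replicate 1 at 1 h. The initiation factors Eif3c and Eif3d are red in strained fascicles at 24 h.

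On the level of arrays, the median deviation of the 16 cytosolic synthetases from their own means was 0.05 to 0.17 on the 3 unstrained arrays at 1 h and -0.32 to -0.27 on those at 24 h. On strained arrays it was -0.0047 to 0.27 at 1 h and -0.07 to 0.05 at 24 h. The 24 h unstrained arrays were thus the lowest and overlapped with no other group. The 42 factors had medians of 0.09 to 0.12 on the strained arrays at 24 h and of -0.09 to -0.0014 on all others. Over all kept probes this median stayed between -0.02 and 0.01 on every array.

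Other genes of the translation machinery and of the ATF4 response were read from fixed lists. A list of termination and recycling genes, which also holds the poly(A)-binding genes Pabpc4, Paip1 and Paip2, had 8 kept genes. Of these, 1 rose at 24 h of strain, where 0.968% of all kept probes rose. It was Pabpc4, a poly(A)-binding protein, at 0.56 ± 0.09 (limma adjusted p = 0.0116). The termination and recycling factors Etf1, Gspt1, Hbs1l, Pelo and Abce1 did not pass. The list's median was 0.25, against 0.01 over all kept probes. Another list holds partners of eIF2, eIF5A and the synthetase complex, and also signalling genes such as Mtor, Rps6kb1, Mknk1 and Mknk2. Of its 12 kept genes, 0 passed in either strain comparison. Aimp1, a scaffold protein of the multi-synthetase complex, stood at 0.55 ± 0.16 at 24 h of strain (limma adjusted p = 0.112). Over culture time without strain, 4 of the 12 rose and 2 fell, where 9.83% of all kept probes rose and 7.42% fell. Of 8 kept mitochondrial translation factors, 0 passed in either strain comparison, and 1 rose over time unstrained and 4 strained, where 9.83% and 12.2% of all kept probes rose.

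Of 20 kept targets of ATF4, among them Atf4 itself, 4 fell and 1 rose over time in unstrained fascicles, at a median of -0.33, where 7.42% of all kept probes fell and 9.83% rose. In strained fascicles 6 fell and 0 rose, at a median of -0.41, where 8.52% fell and 12.2% rose. Atf4, named after its values were seen, fell by 0.98 ± 0.21 without strain (limma adjusted p = 0.00659) and by 1.41 ± 0.21 with it (limma adjusted p = 0.000605). For strain at 24 h the list had a median of -0.02, where the 6 synthetases with the core site had 0.35, and 1 member changed: Trib3, a pseudokinase induced by ATF4, fell by 0.81 ± 0.17 (limma adjusted p = 0.0357).

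Markers of other cells moved in the same comparisons. The summed intensity of the 8 macrophage markers on the array was 1845 to 3291 in unstrained fascicles at 1 h, 1163 to 2062 in strained fascicles at 1 h, 1491 to 2030 unstrained at 24 h and 964 to 1008 strained at 24 h. Of the 7 kept, 1 fell with strain at 24 h, where 1.37% of all kept probes fell. Over time 4 fell and 1 rose unstrained, where 7.42% of all kept probes fell and 9.83% rose. Strained, 4 fell, where 8.52% of all kept probes fell. The sum mixes opposite moves: over time unstrained 2 of the 7 had values above 0, among them the brightest, Fcer1g, at 0.81. The other 5 lay below 0, among them C1qb at -3.18. No marker was at 0, and Ptprc was below the brightness limit. The 6 tenocyte markers summed to 38593 to 56609 at 1 h and 26838 to 33058 at 24 h unstrained, and to 40368 to 57054 and 21537 to 32373 strained. Of these 6, 2 fell over time unstrained and 5 strained, where 7.42% and 8.52% of all kept probes fell, and 0 passed for strain. The 3 nerve markers summed to 188 to 205 unstrained and 159 to 174 strained at 24 h, with 0 past the test. The 5 skeletal muscle markers on the array summed to 315 to 360 unstrained and 269 to 289 strained at 1 h, without overlap, and to 265 to 275 and 259 to 277 at 24 h. Of the 2 kept, 1 fell over time unstrained, where 7.42% of all kept probes fell: Tnnt3, by 0.93 (limma adjusted p = 0.000871). In the other comparisons 0 passed. The part of these shifts in the results on translation factors and synthetases was not tested.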

How the data were processed

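The authors deposited linear intensity values for 22517 probes on 12 bead arrays. Sorted intensities differ from those of the first array by at most 0.0928%, so the table had been equalised across arrays before deposit, and any change is relative to the other probes. The software, the method and the batches were not given in the sources used here. No value lies below 33.7, so background remains. A further deposited table has 24 columns of per-sample values that name no sample, and was not used. Precision is limited by the number of arrays: the median SE of a log2 fold change was 0.12.

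Intensities were taken on the log2 scale without further normalization. In R 4.3.3, limma 3.58.1 with moderated variances (eBayes) fitted a mean per group over all 12 arrays and 11258 kept probes, two-sided, for 5 contrasts. A member was called at an adjusted p under 0.05, with Benjamini-Hochberg adjustment across the kept probes. Errors after ± are SE of the fit, and mean intensities are geometric. The procedure was tested on simulated data. Figures used matplotlib 3.10.9 in Python 3.11.15.

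Same-numbered strained and unstrained samples deviated together at 1 h (r = 0.604, 0.537 and 0.521, against -0.372 to -0.126 for unlike numbers) and were judged to be pairs there. At 24 h r was 0.0387, 0.309 and 0.388, against -0.391 to 0.0772 for unlike numbers, and they were not accepted as pairs. The reported fit had a mean per group and no block, so it used no pairing at either time. Pairing entered only through the replicate block among the alternatives. Symbols came from GEO's platform annotation; 65 of 66 matched the RefSeq table (GRCr8) by Entrez identifier, with the same symbol. Members, lists, motifs and roles were chosen with earlier results of these data known. Genes named were every member called in any contrast (24), and in each role the member of smallest p for each strain contrast and the brightest; further genes are given for context within a complex or role. Alternatives were the replicate block, variance trend with robust estimation, array weights, no filter or a stricter filter (upper 25%), only the groups compared, cyclic loess, subtraction of the lowest value plus 16, the mean of a gene's probes, and leaving out each array. One promoter sequence is not reported here.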

Additional observations from a re-analysis of the deposited data

How the results depend on the processing

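Over all alternatives no call of a member changed sign. Of the repeated member calls, 636 were kept and 56 lost. With the replicate block, 8 factors and 4 synthetases were called for strain at 24 h, and 1 factor (Eif3d) and 1 synthetase (Tars1) for the difference between times; with array weights, 7 factors and 2 synthetases were called for strain at 24 h. The cause was not tested. The replicate numbers were not accepted as pairs at 24 h, and the replicate block called 0 members at 1 h. Cyclic loess called 8 factors over time unstrained. It gave factor medians of 0.1285 for the difference, 0.1352 for strain at 24 h, 0.1078 over time strained and -0.08922 over time unstrained. Its synthetase medians were 0.1693 for strain at 24 h and -0.03937 over time strained. The latter median was 0.01 in the reported fit, so its sign turned. The sign also turned with the stricter filter and when strained replicate 2 at 1 h was left out. The stricter filter, which left 38 factors and 16 synthetases, gave factor medians of 0.1945 for strain at 24 h and 0.1775 over time strained, and synthetase medians of 0.2618, -0.1923 and -0.4239 for strain at 24 h, time strained and time unstrained. Subtracting the lowest value gave 0.1887 for factors over time strained and -0.1811 for synthetases over time unstrained.

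Leaving out each array gave 1 to 3 factors and 0 to 1 synthetases for strain at 24 h, 4 to 7 factors and 5 to 10 synthetases over time unstrained (5 without unstrained replicate 1 at 24 h), and 8 to 13 factors and 4 to 7 synthetases over time strained (8 factors without strained replicate 3 at 24 h, 4 synthetases without strained replicate 2 at 24 h). Factor medians ran from -0.0206 to 0.03255 for strain at 1 h, 0.1328 to 0.1895 at 24 h, 0.1404 to 0.2035 for the difference, -0.05709 to 0.0214 over time unstrained and 0.1136 to 0.1662 strained. Synthetase medians ran from -0.0278 to 0.05974 for strain at 1 h, 0.1735 to 0.2192 at 24 h, 0.1275 to 0.1933 for the difference, -0.1999 to -0.08411 over time unstrained and -0.02316 to 0.02412 strained. Fitting only the groups compared could not be applied to the difference. Each group had only 3 arrays. Members near the brightness limit could have a small SE, such as 0.08 for Eif4ebp2 for strain at 24 h, but remaining background compresses their fold changes.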
